A study of Mus musculus with 19 samples.

Results

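The genes described here are 9 markers of bile duct cells and of the bipotent progenitors of the liver: Krt7, Krt19, Krt8, Krt18, Sox9, Epcam, Spp1, Cd24a and Cdh1. They were set by gene symbol, with earlier results of these data known. All 9 are among the 13549 genes of the liver table, and 7 are among the 17606 gene identifiers of the tumour tables; Krt7 and Epcam were not analysed here in the tumours. The question is whether livers that carry the DNAJB1-PRKACA fusion of fibrolamellar carcinoma, or tumours of the FL8 line, take on biliary features.

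Hepatoblasts, the progenitors of the fetal liver, give rise to hepatocytes and to cholangiocytes, the cells that line the bile ducts. Cholangiocytes keep Krt7 and Krt19, the transcription factor Sox9, the adhesion protein Epcam and the secreted protein osteopontin, whereas Krt8 and Krt18 are the keratin pair of all simple epithelia, hepatocytes included. Fibrolamellar carcinoma is a liver cancer of young people in which a deletion joins DNAJB1 to PRKACA, the catalytic subunit of protein kinase A, and its cells are known for staining for both hepatocyte and biliary proteins.

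The livers came from mouse embryos at embryonic day 18.5, with 5 controls (numbered 1 to 5) and 4 fusion embryos (6 to 9; the labels write the genotype as DNAJ1B-PKA_Overexpression). The fusion construct, Rosa26 LSL-DNAJB1-PKA-GFP, is switched on by Alb-Cre, a recombinase under the Albumin promoter that becomes active in the liver at mid-gestation; which of the alleles the control embryos carried is not given in the sources used here. The tumours grew from FL8 cells, a single mouse cell line, which were embedded in capsules of gelatin and placed subcutaneously in NSG mice. These hosts lack T, B and NK cells. At an average size of 75 mm3, mice were randomized to palbociclib, which inhibits the cell cycle kinases CDK4 and CDK6, given at a dose of 75 mg/kg by oral gavage, or to its methocel vehicle (the series text names PBS instead). Dosing ran for 3 days and was followed by 4 days off, with 5 tumours in each arm. The labels do not say that each library is a separate animal, so p-values measure the spread between these samples.

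Depth, in counts × 1000000, was 7.66 to 23.1 in control livers, 13.5 to 45.6 in fusion livers, 2.96 to 33.9 in vehicle tumours and 24.9 to 43.1 in palbociclib tumours. Prkaca, part of the construct, checked the genotype labels: its lowest fusion value, 52.5 CPM, was above the highest control value, 49.98 CPM (edgeR log2 fold change 0.78, adjusted p = 0.0379). Dnajb1, read as a second check, was higher in fusion livers (edgeR log2 fold change 0.42, adjusted p = 0.0493), but its groups overlapped. Fusion liver 9 was at 52.2 CPM of Dnajb1 and control 5 at 52.8 CPM. CPM is the count of a gene scaled to a total of 1000000 counts, with library totals adjusted by the TMM method in the livers. Alb and Hnf4a, which mark hepatocytes, were present in both tissues, with Alb at 36650 CPM or more in each liver and 16350 CPM or more in each tumour. Controls 1 and 2 and fusion livers 8 and 9 had 9.72% to 10.1% of their counts on ribosomal protein genes, and the other livers 6.18% to 7.87%. Controls 1 and 2 and fusion livers 6, 7 and 8 were female by Xist, and the other livers male. Among the tumours, the mitochondrial share of reads was 46.6% in vehicle 1 and 1.24% to 6.47% in the others, and vehicle 5 was the shallowest library. Marker values that change call or direction without these libraries are given with and without them.

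Krt7, Krt8 and Krt18 lie on chromosome 15. Krt8 (chr15:101996698-102004482, minus strand) and Krt18 (chr15:102028180-102032027, plus strand) are neighbours that are read away from each other, with starts 23698 bases apart, and Krt7 (chr15:101411043-101430313, plus strand) ends 566385 bases before them. Krt19 (chr11:100140810-100148665, minus strand) and Sox9 (chr11:112782224-112787760, plus strand) share chromosome 11. Epcam is at chr17:87635979-87651129, Spp1 at chr5:104435118-104441050, Cd24a at chr10:43578284-43584265 and Cdh1 at chr8:106603351-106670246, all on the plus strand of mm10 (GENCODE M21, which annotates the same assembly as GRCm38). Whether reads were counted by strand is not given in the sources used here. Gm671 runs antisense over the start of Krt7, and Gm36026 over that of Krt8. Gm42793 lies within Spp1, and a processed pseudogene, Krt8-ps, could share reads with Krt8.

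RefSeq's promoter table (GRCm38.p6) holds 5 of the 9 genes: Krt7, Krt8, Krt18, Epcam and Spp1. The stretches just upstream of 4 of them are shown because they lead into the pair that fell in fusion livers, Krt7 and Epcam, and the neighbouring pair with values above 0, Krt8 and Krt18. They are written along the gene's own strand, 5′ to 3′, and each stops before the first base of the gene's principal transcript: 249 bases for Krt7 (chr15:101412153-101412401), 250 for Epcam (chr17:87635729-87635978), 110 for Krt8 (chr15:102004483-102004592) and 214 for Krt18 (chr15:102027966-102028179). The interval of the Krt7 gene given above begins further upstream than its principal transcript, so the Krt7 stretch lies inside that interval. Capitals mark the GC box GGGCGG on either strand, the letters bound by Sp1.
Krt7: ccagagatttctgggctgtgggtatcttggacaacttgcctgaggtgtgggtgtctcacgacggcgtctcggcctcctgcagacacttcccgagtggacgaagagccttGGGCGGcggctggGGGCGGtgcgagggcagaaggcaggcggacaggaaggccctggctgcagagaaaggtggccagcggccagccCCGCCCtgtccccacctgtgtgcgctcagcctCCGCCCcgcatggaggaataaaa
Epcam: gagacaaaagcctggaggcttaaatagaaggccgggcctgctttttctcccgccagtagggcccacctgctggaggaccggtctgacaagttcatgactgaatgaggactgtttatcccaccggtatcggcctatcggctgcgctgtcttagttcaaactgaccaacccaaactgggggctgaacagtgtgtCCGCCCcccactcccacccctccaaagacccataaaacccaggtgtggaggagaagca
Krt8: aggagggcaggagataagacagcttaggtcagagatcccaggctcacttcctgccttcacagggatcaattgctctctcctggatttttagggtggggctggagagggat
Krt18: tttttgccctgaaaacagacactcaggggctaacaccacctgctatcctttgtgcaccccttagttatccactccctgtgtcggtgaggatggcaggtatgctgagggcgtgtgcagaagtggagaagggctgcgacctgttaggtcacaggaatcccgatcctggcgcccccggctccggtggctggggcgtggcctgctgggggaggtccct
Matches were counted in windows of 250 bases upstream of RefSeq's starts. For Krt8 and Krt18 these windows hold more than the 110 and 214 bases printed. Krt7 had 4 GC boxes in its window and Epcam had 1, while Krt8, Krt18 and Spp1 had none, against 32.7% of 32851 such windows that held at least 1. The half-site of the cyclic AMP response element, TGACG on either strand, is the core of the site bound by CREB, a target of protein kinase A. It was in 17.8% of all windows and in none of the windows of these 5 genes. A match or its absence describes the letters of these windows only.

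In fusion livers the called markers were all ductal and all lower. Krt7, Krt19 and Epcam fell to between 0.352 and 0.532 of their control level, Sox9 and Spp1 had values below 0 that did not pass the test, and Krt8, Krt18, Cd24a and Cdh1 had values above 0 that did not pass it either. Calls are from edgeR's quasi-likelihood test over 13316 genes, at an adjusted p under 0.05. The count was 3 of 9 markers called, all 3 lower, against 12.8% of all genes called, 6.81% lower and 5.99% higher. Fusion and control values did not overlap for 4 of the 9 (Krt7, Krt19, Epcam and Krt18), 3 of them lower, against 16.9% of all genes, or 7.6% in the lower direction.

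Krt7, a type II keratin of ducts and other simple epithelia with a secretory role, was at 8.79, 7.59, 6.83, 7.22 and 6.57 CPM in controls 1 to 5, from 55 to 175 counts a library. Fusion livers 6 to 9 had 3.32, 4.63, 3.00 and 4.28 CPM, from 39 to 159 counts. Every fusion liver was below every control. The log2 fold change was -0.98 ± 0.17 (SE), 1.97-fold lower, with an edgeR adjusted p of 0.00512. The fall was -1.20 among the 4 livers with a high ribosomal share and -0.84 among the other 5.

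Krt19, the type I keratin most used to mark bile ducts, was at 7.16, 7.32, 7.16, 7.30 and 6.88 CPM in controls 1 to 5. These values lie closer together than those of any other marker here. Fusion livers 6 to 9 had 3.90, 3.79, 2.92 and 4.77 CPM, all below the controls. This was a log2 fold change of -0.91 ± 0.16, 1.88-fold lower (edgeR adjusted p = 0.00418), and it was -0.92 and -0.89 on the sides of high and low ribosomal share.

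Epcam, an adhesion protein of ductal and progenitor cells, was at 4.77, 6.90, 4.19, 4.58 and 3.79 CPM in controls 1 to 5 and at 0.751, 1.44, 1.54 and 3.39 CPM in fusion livers 6 to 9. All fusion values were lower than the lowest control, fusion liver 9 by the least. This gave a log2 fold change of -1.51 ± 0.37 (edgeR adjusted p = 0.0239), 2.84-fold lower, from 20 to 111 counts a library. The call was lost without control 3 (adjusted p = 0.0502), without fusion liver 7 (adjusted p = 0.0704) and without fusion liver 8 (adjusted p = 0.066). Without fusion liver 9 the value was -2.03 (adjusted p = 0.00224).

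Sox9, the transcription factor that marks the ductal plate from which bile ducts form, was at 3.73, 3.04, 5.79, 5.48 and 3.79 CPM in controls 1 to 5, from 22 to 133 counts. Fusion livers 6 to 9 had 0.814, 1.02, 2.00 and 3.73 CPM. Fusion livers 6, 7 and 8 were below all controls, and fusion liver 9 lay within the control range. Its log2 fold change of -1.31 ± 0.41 did not pass the test (edgeR adjusted p = 0.0562), and without fusion liver 9 it was -1.89 (adjusted p = 0.00579).

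Spp1 encodes osteopontin, which cholangiocytes secrete and which macrophages also make. It was at 29.2, 24.6, 28.1, 49.5 and 33.2 CPM in controls 1 to 5 and at 2.61, 5.23, 6.92 and 25.6 CPM in fusion livers 6 to 9. Again fusion livers 6, 7 and 8 were below every control, and fusion liver 9 was above control 2. For Spp1 the log2 fold change of -1.76 ± 0.54 did not pass the test (edgeR adjusted p = 0.052); without fusion liver 9 it was -2.82 (adjusted p = 0.000475).

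Sox9 and Spp1 depended on which livers were compared. Among controls 1 and 2 and fusion livers 8 and 9, the livers with a high ribosomal share, Sox9 was -0.28 and Spp1 -0.75, neither called. Among the other 5 livers Sox9 was -2.50 and Spp1 -3.37, both called by edgeR (adjusted p = 0.00033 and 0.000134). The difference between the sides was not tested, and the second set holds male controls only and female fusion embryos only, where sex and genotype cannot be told apart. Leaving out fusion liver 9, the only male fusion embryo, left female fusion embryos against controls of both sexes, for Epcam too. With sex as a covariate over all 9 livers Sox9 was -1.05 (edgeR adjusted p = 0.0703) and Spp1 -1.66 (adjusted p = 0.0315).

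**Figure D1:**
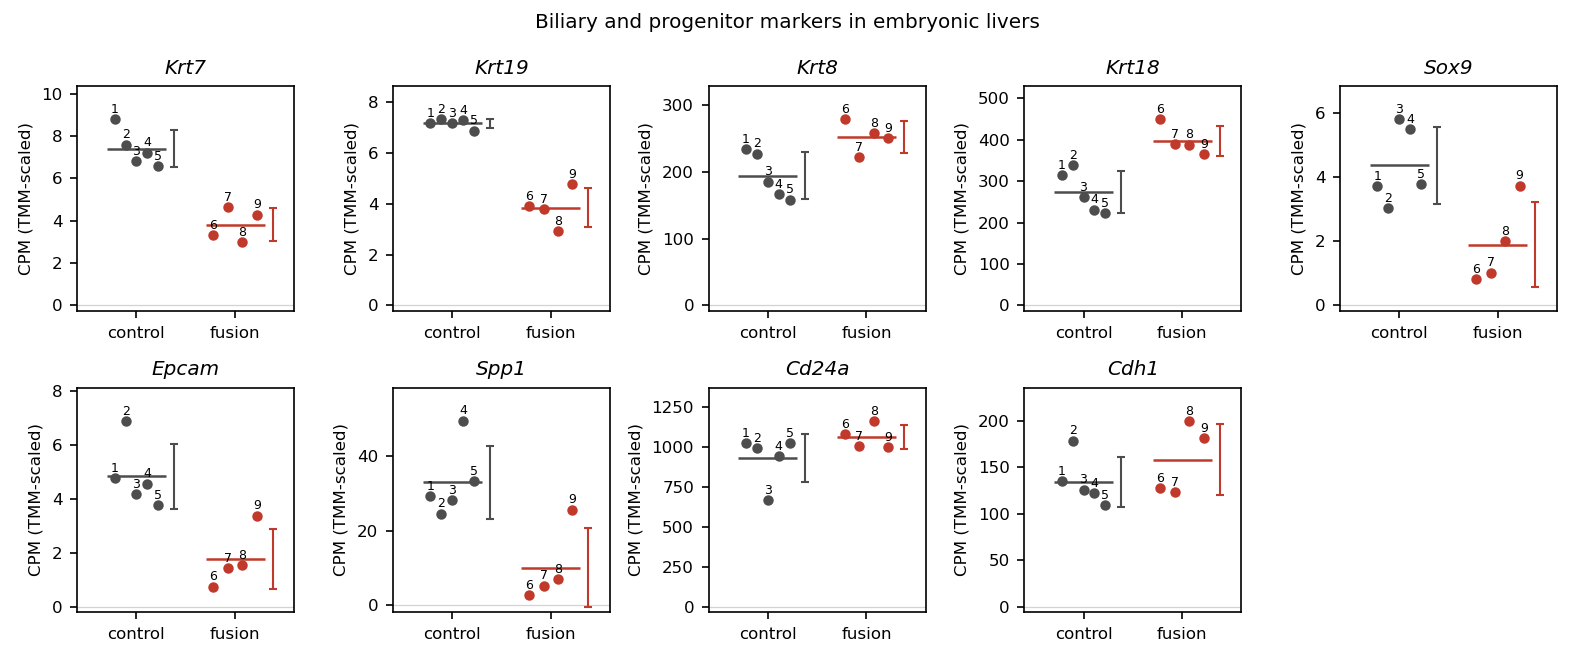
CPM (linear axes, TMM-scaled) of the 9 markers in 5 control and 4 fusion livers; each point is 1 library with its number, the line is the mean and the bar beside it the SD. Krt7, Krt19 and Epcam lie lower in every fusion liver, Krt18 lies higher in every one, and fusion liver 9 lies near the controls for Sox9, Epcam and Spp1.

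Krt8 and Krt18 encode partners that assemble into one filament. Krt8 was at 234, 228, 186, 166 and 159 CPM in controls 1 to 5 and at 279, 222, 258 and 251 CPM in fusion livers 6 to 9, where only fusion liver 7 was within the control range. Its log2 fold change was 0.36 ± 0.15 (edgeR adjusted p = 0.150). Krt18 was at 315, 338, 261, 231 and 222 CPM in controls and at 449, 389, 388 and 365 CPM in fusion livers, with no overlap.

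Krt18 had a log2 fold change of 0.52 ± 0.16, which just missed the threshold (edgeR adjusted p = 0.0518). With DESeq2 in place of edgeR the adjusted p was 0.0108, and within the 5 livers of low ribosomal share Krt18 was 0.81 and Krt8 0.55, both called. Among the 4 livers with a high ribosomal share they were 0.18 and 0.12, neither called. The set of low share holds male controls only and female fusion embryos only, so sex and genotype cannot be told apart there. With sex as a covariate over all 9 livers Krt18 was 0.41 (edgeR adjusted p = 0.0727) and Krt8 0.28 (adjusted p = 0.227). Controls 1 and 2 held the 2 highest control values of both keratins. Krt18 was called when either was left out: 0.59 without control 1 (edgeR adjusted p = 0.0447) and 0.62 without control 2 (adjusted p = 0.0256).

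Per kilobase of transcript, Krt19 made up 1.30% to 1.85% of the summed level of Krt8, Krt18 and Krt19 in controls and 0.459% to 0.786% in fusion livers. The ranges did not overlap. The level of Krt8 per kilobase was 0.494 to 0.546 of that of Krt18 in controls and 0.419 to 0.505 in fusion livers, which overlap.

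Cd24a, a surface protein of progenitors that red cell precursors also carry, was at 1022, 991, 669, 944 and 1023 CPM in controls and at 1081, 1006, 1163 and 998 CPM in fusion livers. The log2 fold change was 0.17 with a 95% interval of -0.14 to 0.48 (edgeR adjusted p = 0.508). Control 3 was the lowest library, and it also had the lowest summed CPM of 8 erythroid genes, 3490, against 4031 to 5975 in the other 8 livers. Fusion liver 6, at 4031 the lowest of those 8, was at 1081 CPM of Cd24a. The part of erythroid cells in the Cd24a values of the livers was not tested. Cdh1, E-cadherin, the main adhesion protein of hepatocytes and ducts alike, was at 135, 179, 126, 122 and 109 CPM in controls and at 127, 123, 200 and 181 CPM in fusion livers. The groups overlapped, and the log2 fold change was 0.22 with an interval of -0.15 to 0.59 (edgeR adjusted p = 0.481).

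**Figure D2:**
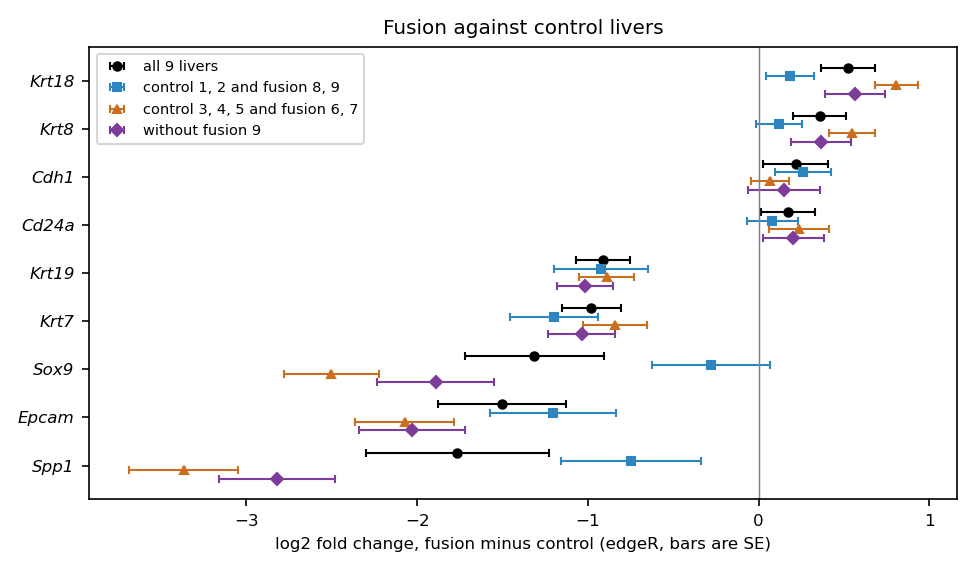
Log2 fold change of each marker, fusion minus control (x axis), with its SE as the bar, over all 9 livers, within the livers of high and of low ribosomal share, and without fusion liver 9. Krt7 and Krt19 stay between -1.20 and -0.84 in all 4 sets, while Sox9 runs from -2.50 to -0.28 and Spp1 from -3.37 to -0.75.

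Markers of other cells were read beside the ductal markers, against 6.81% of all genes called lower and 5.99% called higher. In bulk tissue, fewer cells of a type and less RNA per cell cannot be told apart. Of 8 mesothelial markers besides Krt7 and Krt19, which mesothelium also expresses, 6 were tested, all 6 had values below 0 and 1 was called (Msln, -0.78, edgeR adjusted p = 0.0122). Their summed level was 22.5 to 35.6 CPM in controls and 14.7 to 21.8 CPM in fusion livers. Of 12 markers of fibroblasts and stellate cells, 3 fell (Col1a1 -0.80, Col1a2 -0.57, Reln -0.56) and none rose. The summed levels of the 12, 504 to 680 CPM in controls and 430 to 508 CPM in fusion livers, overlapped. None of 15 macrophage markers was called, with summed levels of 1561 to 1806 CPM in controls and 1396 to 1494 CPM in fusion livers. Their part in the lower ductal markers was not tested.

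Other biliary genes did not move one way. Of 36 genes of a wider biliary list, 30 were tested, 3 rose and 4 fell, with a median log2 fold change of -0.07. Over all genes 5.99% were called higher and 6.81% lower, with a median of -0.01, and the lists that follow are to be read beside the same shares. Wnt4, a secreted Wnt ligand, rose from 30.6 ± 7.55 CPM (SD, n = 5) to 238 ± 40.5 (n = 4), a log2 fold change of 2.94 (edgeR adjusted p = 1.5e-05). Prom1, the progenitor marker CD133, rose from 18.1 ± 4.53 to 58.3 ± 8.59 CPM (1.67), and Atp1b1, a subunit of the sodium pump, rose by 0.74. Cldn7, a tight junction claudin, fell from 3.93 ± 0.862 to 1.16 ± 0.827 CPM (-1.84), Tstd1 fell from 4.91 to 1.72 CPM (-1.56), and Muc1, a mucin of the duct surface, fell from 0.612 to 0.198 CPM (-1.78). The fourth that fell was Clu (-0.59).

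Calls among the pathways that set biliary fate stand beside 12.8% of all genes called. Of 25 tested Notch genes, 1 rose (Adam17, a protease that cleaves Notch receptors, 0.44) and 1 fell (Rfng, a glycosyltransferase of Notch, -0.60), with a median of 0.07. Of 21 tested Hippo and YAP genes, 1 rose (Mob1b, a cofactor of the Lats kinases, 0.68) and none fell. Of 25 tested genes of epithelial adhesion and junctions, 2 fell (Pkp2, a plakophilin of desmosomes, -0.69, and F11r, a junction adhesion molecule, -0.59) and none rose. Of 13 tested partners of osteopontin, CD44 and integrins, 1 rose (Itgav, 0.78) and none fell.

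Of 20 tested hepatoblast genes, 5 rose and 2 fell, with a median of 0.18, beside 5.99% and 6.81% of all genes. Afp, the fetal serum protein alpha-fetoprotein, was between 38380 and 49760 CPM in controls and between 70630 and 94280 CPM in fusion livers (0.86, edgeR adjusted p = 0.0178). Prom1 is also on that list, and Peg3, an imprinted gene, rose by 1.54. Dlk1, a surface marker of hepatoblasts, fell by 0.69 and Gpc3, an oncofetal glypican, fell by 0.79. Of the 4 other keratins tested, Krt20, a keratin of the gut lining, rose from 19.95 ± 1.89 to 31.6 ± 6.38 CPM (0.65), and no other was called.

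Over the 9 livers, the genes whose log2 CPM followed that of Krt19 most closely, among 8303 genes averaging 10 CPM or more, were Itih4 (Pearson r 0.989, Spearman rho 0.85), Slc31a1 (0.980, 0.733), Srek1 (0.978, 0.917), Slc1a4 (0.977, 0.85) and Fkbp5 (0.977, 0.833). For Sox9 they were Gas5 (0.975, 0.917), Timd2 (0.964, 0.833), Siah2 (0.963, 0.917), Aqp9 (0.960, 0.917) and Cyp39a1 (0.958, 0.9). These livers share the group split and the split by ribosomal share, so the values describe likeness over 9 libraries only.

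FL8 tumours showed the simple keratins at a high level and Krt19 near 0. The livers and tumours differ in library type, processing and unit, so their levels are set side by side with no test. By CPM per kilobase, ranked among 12522 genes of both tables within each library, Krt8 was at the median percentile 94.5 in control livers, 95.3 in fusion livers, 99.3 in vehicle tumours and 99.5 in palbociclib tumours. Krt18 was at 96.9, 97.6, 99.5 and 99.7 in the same order. Krt19 was at 46.4 in control livers, 32.8 in fusion livers, 4.82 in vehicle tumours and 5.16 in palbociclib tumours. For Sox9 the medians were 18.2, 8.41, 37.9 and 31.3, with ranges that overlap (15.4 to 22.4 in control livers, 15.3 to 47.7 in vehicle tumours and 18.1 to 48.2 in palbociclib tumours), and Cdh1 held a like place in all (83.7, 85.5, 86.6 and 86.1).

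**Figure D3:**
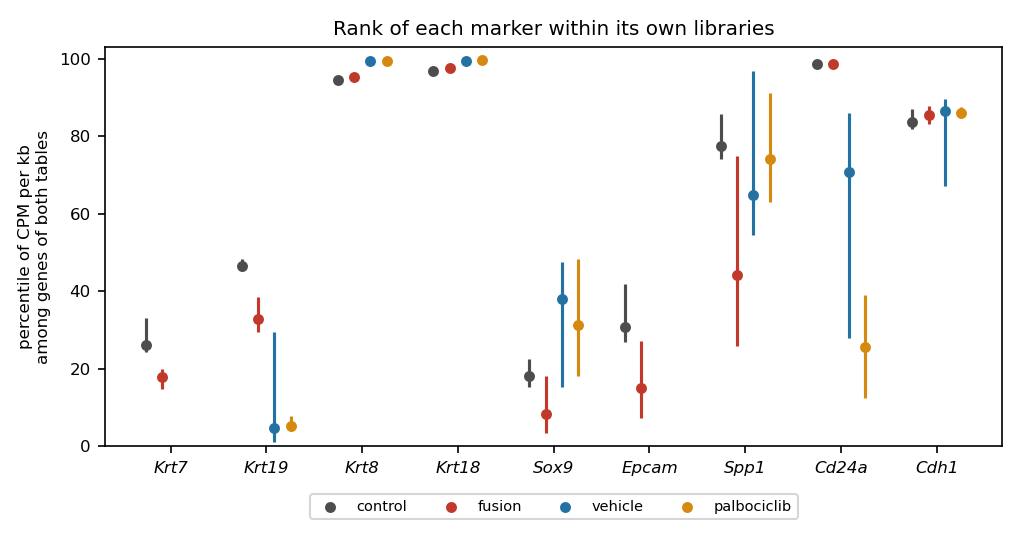
Percentile of each marker's CPM per kilobase among the genes of both tables within each library; points are the median of a group and lines run from its lowest to its highest library. Krt8 and Krt18 are above 93 in every library, Krt19 has its lowest places in the tumours, and Cd24a runs from 98.3 or more in livers down to 12.6 in a tumour.

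Krt19 was listed at 0, 2, 0, 2 and 6 reads in vehicle tumours 1 to 5 and at 0, 0, 0, 6 and 0 reads in palbociclib tumours 1 to 5, beside 3886 to 112839 reads of Krt8. A count of 0 allows up to 3 reads, which is 0.0779 to 0.121 CPM in the 6 tumours at 0, counting error only. The highest value, 2.03 CPM, was 6 reads in vehicle 5, the shallowest library. Krt19 was too low to be tested. As a share of the summed level of Krt8, Krt18 and Krt19 per kilobase it reached at most 0.0857% in a tumour. Of the 8 mesothelial markers only 1 was listed in the tumours, at 0 to 2.51 CPM, so their level there cannot be read as that of a set.

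No gene passed the test between palbociclib and vehicle tumours: limma on log2(CPM + 1) called 0 of 12829 genes (0%), with 586 at an unadjusted p under 0.05, edgeR on reads recovered from the CPM called 0, and DESeq2 called 8, none a marker. None of the 6 markers tested was called by any of these, and none of the 6 had groups that do not overlap, against 0.935% of all genes. Over all genes the median log2 fold change was 0.14, and it was 0.01 after TMM scaling, so values near 0.14 are the shift of the table.

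Krt8 was at 528, 1989, 1649, 2738 and 1315 CPM in vehicle tumours 1 to 5 and at 1374, 2281, 1222, 2616 and 2171 CPM in palbociclib tumours 1 to 5. Krt18 was at 568, 1260, 1379, 2634 and 1194 CPM and at 1176, 2045, 1193, 1999 and 1960 CPM. In both, vehicle 1 was the lowest tumour, and the arms overlapped. The log2 fold changes of 0.36 for Krt8 and 0.37 for Krt18 were not called, and without vehicle 1 they were -0.002 and 0.09 (limma adjusted p = 0.9995 and 0.994). After TMM scaling they were 0.21 and 0.22, with vehicle 1 kept.

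Sox9 was at 2.21, 22.8, 11.5, 13.2 and 12.5 CPM in vehicle tumours and at 7.08, 7.68, 2.85, 20.8 and 19.6 CPM in palbociclib tumours. The arms covered the same range, and the log2 fold change was -0.12 with a 95% interval of -1.14 to 0.91 (limma adjusted p = 0.983). It was -0.57 without vehicle 1, and the direction changed to 0.15 without vehicle 2 and to 0.24 without palbociclib 3. Cdh1 was at 31.2, 186, 134, 205 and 156 CPM in vehicle tumours and at 161, 137, 163, 133 and 144 CPM in palbociclib tumours. Vehicle 1 was again the lowest, and the log2 fold change of 0.29 was -0.19 without it (limma adjusted p = 0.994). After TMM scaling, with vehicle 1 kept, the Cdh1 value was 0.14.

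Cd24a was at 27.8, 26.9, 57.6, 5.77 and 2.03 CPM in vehicle tumours 1 to 5 and at 2.51, 5.06, 0.548, 4.54 and 2.70 CPM in palbociclib tumours 1 to 5. Vehicle tumours 1, 2, 3 and 4 were above all palbociclib tumours, and vehicle 5, with 6 reads, lay among them. The log2 fold change was -2.10 ± 0.64, and it did not pass over all genes (limma unadjusted p = 0.00462, adjusted p = 0.953). It was -2.69 without vehicle 5 (limma adjusted p = 0.274), -2.60 without vehicles 1 and 5 (adjusted p = 0.214) and -3.17 with both edgeR and DESeq2 on recovered reads (adjusted p = 0.904 and 0.161), so no alternative called it. The summed CPM of 12 erythroid genes, globins included, was 16940, 36770, 96710, 10570 and 1345 in vehicle tumours and 1778, 8502, 3497, 7937 and 6389 in palbociclib tumours. The 4 tumours highest in these genes were the 4 highest in Cd24a, and vehicle 3 was the highest in both. The part of blood cells in the Cd24a values was not tested.

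**Figure D4:**
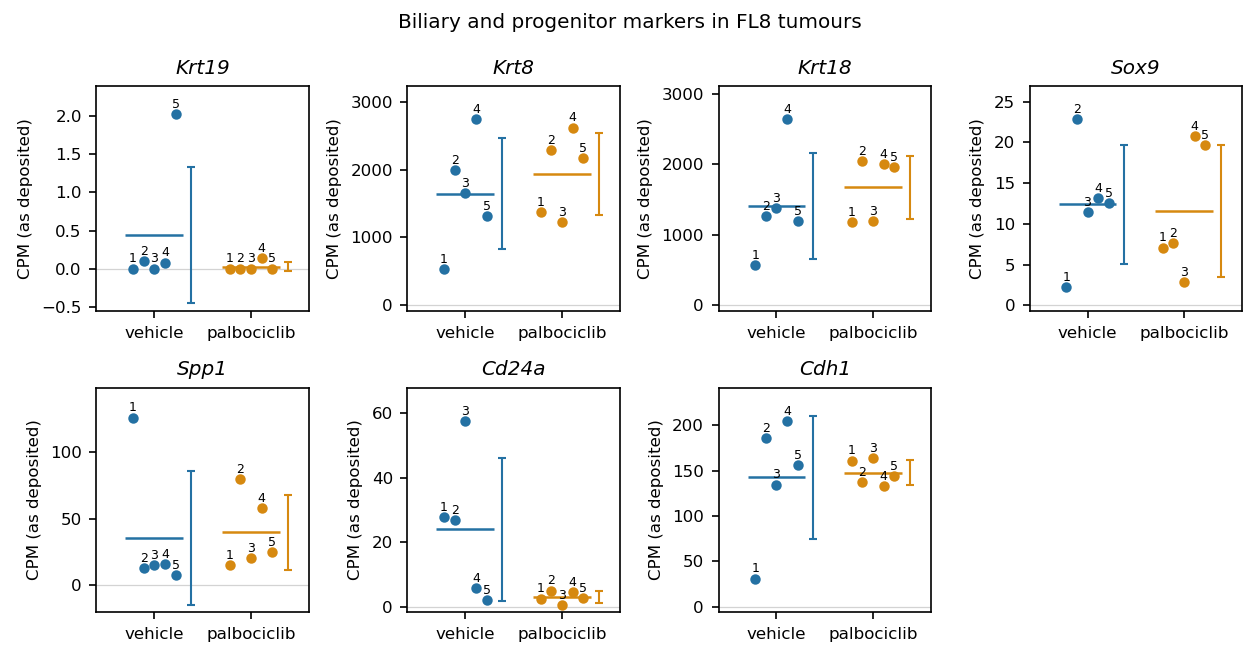
CPM as deposited (linear axes) of the 7 markers analysed in 5 vehicle and 5 palbociclib tumours; points are libraries with their numbers, the line is the mean and the bar beside it the SD. The arms overlap for each marker, and vehicle 1 is the lowest for Krt8, Krt18, Sox9 and Cdh1 and the highest for Spp1. In vehicle 1, 46.6% of the total was mitochondrial reads, which leaves a smaller share for other genes.

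Spp1 was at 126, 12.6, 15.1, 16.1 and 7.78 CPM in vehicle tumours 1 to 5 and at 15.1, 79.6, 20.6, 57.8 and 24.8 CPM in palbociclib tumours 1 to 5. Vehicle 1 was the highest tumour, followed by palbociclib 2, 4 and 5. The log2 fold change was 0.67 ± 0.59 (limma adjusted p = 0.953), 1.32 without vehicle 1, and -0.37 with edgeR on recovered reads. The summed CPM of 14 macrophage genes was 2716, 136, 276, 177 and 167 in vehicle tumours and 154, 544, 221, 402 and 380 in palbociclib tumours. The 4 tumours highest in Spp1 were the 4 highest in macrophage genes, in the same order. The part of macrophages in the Spp1 values was not tested.

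**Figure D5:**
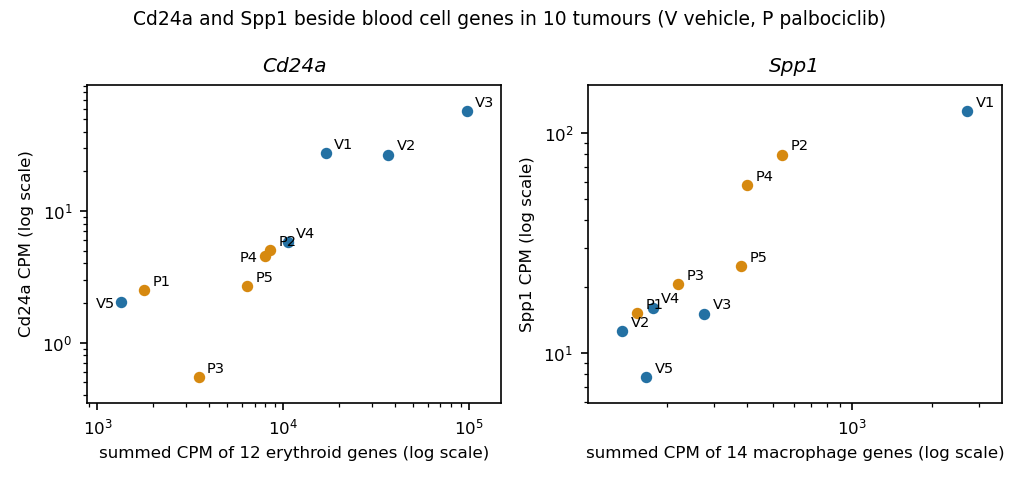
Cd24a against the summed CPM of 12 erythroid genes (left) and Spp1 against that of 14 macrophage genes (right) in 5 vehicle (V) and 5 palbociclib (P) tumours, all axes log scaled. Vehicle 3 is highest on both axes for Cd24a (57.6 CPM, 96710 CPM) and vehicle 1 for Spp1 (126 CPM, 2716 CPM).

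The wider biliary list held genes at very different places in the tumours. The 5 named here were picked after their values were seen. Cldn3, a claudin, was at 147 ± 62.1 CPM (SD, n = 5) in vehicle tumours, beside 5.41 ± 2.22 in control and 2.55 ± 1.64 in fusion livers. Clu, the secreted chaperone clusterin, was at 1114 ± 303 CPM, beside 231 ± 21.6 and 156 ± 37.4, and Tstd1 was at 54.9 ± 27.3 CPM. Cldn7 was at 0.618 ± 0.512 CPM and Muc1 at 0.487 ± 0.483 CPM in the same tumours. None of the 24 genes of the list tested in tumours was called, with a median of 0.16, near that of all genes; the smallest unadjusted limma p-values were those of Tstd1 (0.68) and Tspan8 (0.82), given with their log2 fold changes.

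The other lists had no called gene in the tumours either. Medians were -0.15 for 24 Notch genes, 0.12 for 22 Hippo and YAP genes, 0.38 for 13 hepatoblast genes, 0.25 for 25 junction genes and 0.01 for 10 partners of osteopontin, CD44 and integrins. By smallest unadjusted p, the Notch genes were Nrarp, a feedback inhibitor of Notch (-0.88), and Dll4, a Notch ligand of vessels (-0.76). The Hippo and YAP genes were Ajuba (0.46) and Ankrd1, a YAP target (-0.58), and the hepatoblast genes were Foxm1, a factor of dividing cells (1.47), and Igf2 (1.34). The junction genes were Dsp (0.71) and Dsc2 (0.54), both of desmosomes, and the partners were Itgav (0.55) and Siglece (-0.83). Of the other keratins, the 2 tested in tumours were Krt5 (-0.10) and Krt222 (-0.08).

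Over the 10 tumours the genes closest to Sox9, among 8432 averaging 10 CPM or more, were Rassf7 (Pearson r 0.940, Spearman rho 0.939), Pigo (0.927, 0.842), Josd2 (0.922, 0.879), Thpo (0.917, 0.867) and Dennd6b (0.911, 0.891). None of these 5 was among the 5 closest to Sox9 in livers. No such ranking was made for Krt19 in the tumours, where 6 of 10 libraries had 0 reads.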

How the data were processed

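The liver table holds raw counts per gene deposited by the authors, made with STAR 2.5.1b on mm10 per the submitters' processing notes; the tumour tables hold CPM deposited by the authors, for which the notes name cutadapt 2.10, HISAT2, featureCounts and mm10. A second block of 9 columns in scaled fragments was not used. All listed genes had a count sum of at least 47 in the livers and 12 in the tumours, so rarer genes are not analysed here. Tumour CPM gave whole reads for 100% of values (within 0.001).

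Livers were tested with edgeR 4.0.16 (quasi-likelihood, TMM, filterByExpr) and tumours with limma 3.58.1 (trend) on log2(CPM + 1), keeping genes that averaged 1 CPM or more, which understates changes of low genes. P-values are two-sided, with Benjamini-Hochberg adjustment over all genes tested and a threshold of 0.05. Intervals are normal 95% intervals from the SE. DESeq2 1.42.0, other size factors and filters, covariates and left-out libraries were alternatives. Transcript lengths are those of GENCODE M21 principal transcripts. Both tests were checked on simulated counts with the same spread setting for every gene and library, which cannot show their power in these tumours. Replicates differed by more than counting noise.

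The 9 markers and the gene lists were chosen with earlier results of these data known. Named besides the markers were up to 3 called genes in each direction of each list, or the 2 with the smallest unadjusted p where none was called, the 5 genes most like Krt19 and Sox9, and genes that check labels and tissue. Clu in the livers, and Cldn3, Clu, Tstd1, Cldn7 and Muc1 with their tumour levels, were added after their values were seen. Tumours with the same number were not paired: their deviations from the group means correlated at -0.317 to 0.002.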

Additional observations from a re-analysis of the deposited data

Results flagged for a closer look

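Among 32 groups of marker values screened, 4 held a library that stood apart from the others of its group by Dixon's test, where chance gives about 1 in 20. Cd24a was at 669 CPM in control liver 3 and at 944 to 1023 CPM in the other controls. Krt19 was at 2.03 CPM in vehicle tumour 5 and at 0.139 CPM in palbociclib tumour 4, each resting on 6 reads. The other 4 palbociclib tumours were at 0, where any read at all stands apart, and vehicle 5 is the shallowest library, so that neither value is set against the 1 in 20. Spp1 was at 126 CPM in vehicle tumour 1, the tumour with 46.6% mitochondrial reads and 2716 CPM of macrophage genes, and at 7.78 to 16.1 CPM in the other vehicle tumours.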

How the results depend on the processing

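In the livers all 9 markers kept their direction under every alternative run, and Krt7 and Krt19 kept their call in 17 of 17 each; with a mean of at least 10 CPM required, Krt7, Krt19, Sox9 and Epcam were not tested. The count of markers called, 3 at first, was 5 with upper-quartile factors, 6 with DESeq2, 1 (Krt18) with a mean of at least 10 CPM, 7 with the ribosomal share as a covariate and 7 within the livers of low ribosomal share. It was 2 to 5 with 1 library left out, highest without fusion liver 9. These marker counts are to be read beside those of all genes. The count of genes called, 1704 of 13316, was 1670 of 13316 with upper-quartile factors and 2489 of 13549 with DESeq2. It was 1213 of 8311 with a mean of at least 10 CPM and 4531 of 13316 with the ribosomal share as a covariate. Within high ribosomal share it was 2589 of 12930, and within low ribosomal share 2950 of 13524. The count of genes called was 969 to 1581 with 1 library left out, lowest without control 3 (969), fusion liver 8 (987) and fusion liver 7 (1107). In the tumours no marker was called under any alternative, and the count of genes called was 0 except with DESeq2 on recovered reads (8). With a replicate block, which pairs tumours by number, 0 genes and 0 markers were called; no tumour of the 5 vehicle tumours correlated best with its own number. Directions changed for Krt8 (-0.167 without vehicle 1 and 5 together; -0.002 to 0.591 with 1 tumour left out), Krt18 (-0.033 without both), Cdh1 (-0.227 without both; -0.191 to 0.478), Sox9 (0.152 without vehicle 2, 0.24 without palbociclib 3; from -0.571) and Spp1 (-0.367 with edgeR and -0.385 with DESeq2 on recovered reads). The cause of these changes was not tested. Krt7, Krt19, Sox9 and Epcam rest on 17 to 187 counts a liver, and Krt19 on 0 to 6 reads a tumour.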

Other observations

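Of 24 tested hepatocyte genes, 5 rose and 5 fell in the fusion livers, with a median of -0.32, against 5.99% of all genes higher, 6.81% lower and a median of -0.01. Pck1, the entry enzyme of gluconeogenesis, rose from 25.8 ± 20.7 CPM (SD, n = 5) to 1049 ± 392.4 (n = 4), a log2 fold change of 5.32 (edgeR adjusted p = 0.000519). Tat, a tyrosine-degrading enzyme, rose by 4.69 and G6pc, which releases glucose, rose by 2.36. Cyp2e1, a cytochrome P450, fell by 3.79, and Cebpa and Nr1h4, a hepatocyte factor and the bile acid receptor, fell by 0.65 and 0.66. In the tumours none of the 24 was called (median 0.32).

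Of the markers of gut lining, 2 of 4 tested rose in fusion livers: Tff3, a secreted trefoil peptide, from 278 ± 28.3 to 612 ± 72.0 CPM (1.12), and Krt20. Cela1, the one pancreatic marker tested, rose by 0.72, and Comp, a cartilage matrix protein, fell by 1.31. None was called among the 8 erythroid, 11 neutrophil, 8 B lineage, 10 endothelial, 5 megakaryocyte, 3 stratified epithelial, 3 T cell and 2 skeletal muscle markers tested.

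Prkaca was at 114, 73.4, 54.0 and 52.5 CPM in fusion livers 6 to 9. Sox9, Epcam and Spp1 ran in the reverse order, with fusion liver 9 the highest in each, but Krt7 and Krt19 did not, both being lowest in fusion liver 8. The ribosomal share was low in fusion livers 6 and 7 and high in 8 and 9. By this split it runs opposite to Prkaca and the same way as Sox9, Epcam and Spp1. These orders were picked from the values after they were seen and have no test.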
